A study of Mus musculus with 2 samples.

Results

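The genes described here are 9 transcripts that glucocorticoid hormones are known to raise in many tissues: Fkbp5, Tsc22d3, Per1, Klf9, Ddit4, Sgk1, Zbtb16, Errfi1 and Pik3ip1. They are 9 of the 31053 genes listed in each library. They were chosen by their UMI counts across blood cell classes in these same libraries, as well as for their known response to the hormone, so the differences between genotypes given below describe the choice and are not a test of it. Blood from mice of 2 genotypes, wild-type (wt) and db/db, was profiled by droplet single-cell RNA sequencing, in which each captured transcript is counted once through a unique molecular identifier (UMI). Both groups were males of the C57BLKs/J strain, aged 21 weeks, and db/db mice carry a mutation of the leptin receptor gene Lepr that makes them obese and diabetic. Each group gave 1 library, from 200 µl of blood and 3 mice, after lysis of the red cells, and cells carry no tag for the mouse they came from in the files used here. Without replicates no test between genotypes was possible, and all intervals given (95%) reflect counting error alone.

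Glucocorticoids cross the cell membrane and bind the glucocorticoid receptor, encoded by Nr3c1, which is held in the cytoplasm by Hsp90 and its co-chaperones and then moves to the nucleus and binds DNA. The receptor raises genes that damp inflammation, slow growth signals and close the hormone loop, and it lowers many cytokine genes. In blood, the hormone is known to move lymphocytes out of the circulation and to release neutrophils, and lymphocytes are more sensitive to its killing effect than myeloid cells. Of the members, Fkbp5 encodes a co-chaperone that lowers the receptor's affinity for hormone, Tsc22d3 encodes GILZ, an inhibitor of NF-kB and AP-1, and Per1 is a core clock gene. Klf9 and Zbtb16 encode transcription factors, the second known as PLZF, the factor of innate-like lymphocytes. Ddit4 encodes an inhibitor of mTORC1 that also answers to hypoxia and energy stress, Sgk1 is a kinase downstream of PI3K, Errfi1 inhibits the EGF receptor, and Pik3ip1 inhibits PI3K and is also a FOXO target.

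The identifiers in the files matched GENCODE M21 (build GRCm38) for all 9 members. Fkbp5 (ENSMUSG00000024222) is on chromosome 17 from 28399094 to 28517527 on the minus strand, Tsc22d3 on chromosome X from 140539528 to 140600659 on the minus strand, Ddit4 on chromosome 10 from 59949669 to 59951834 on the minus strand, and Sgk1 on the same chromosome from 21882184 to 21999903 on the plus strand. The other 5 are on chromosomes 11 (Per1, Pik3ip1), 19 (Klf9), 9 (Zbtb16) and 4 (Errfi1). Fkbp5 overlaps unnamed gene models on its own strand, none of which is listed in the libraries. All 9 are protein-coding genes.

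RefSeq promoter windows (build GRCm38.p6, 250 bases before to 50 after a start site) were matched for 8 of the 9 members. They were searched on both strands for the glucocorticoid response element, AGAACA and TGTTCT with any 3 bases between them, for its arm AGAACA (on the other strand TGTTCT), for the E-box CACGTG that clock factors bind, for the cyclic AMP response element TGACGTCA, for its shorter form TGACG, which the longer one contains, and for the FOXO element GTAAACA. The full element is rare in such windows, at 3 of 32851 (0.00913%), and 1 of those 3 belongs to Sgk1. From 5 members, a stretch of 250 bases before a start site is printed, 5′ to 3′ on the gene's strand, because they hold the element, its arm or an E-box, or, for Ddit4, because the member had the largest B cell log2 ratio of the 9, with capitals marking the full element, the arm and the E-box.
Sgk1, chr10:21993640-21993889, plus strand: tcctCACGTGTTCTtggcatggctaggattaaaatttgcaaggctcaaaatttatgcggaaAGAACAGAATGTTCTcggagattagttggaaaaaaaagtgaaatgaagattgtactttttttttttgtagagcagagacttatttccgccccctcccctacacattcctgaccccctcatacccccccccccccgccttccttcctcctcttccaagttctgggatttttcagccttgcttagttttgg
Tsc22d3, chrX:140600523-140600772, minus strand: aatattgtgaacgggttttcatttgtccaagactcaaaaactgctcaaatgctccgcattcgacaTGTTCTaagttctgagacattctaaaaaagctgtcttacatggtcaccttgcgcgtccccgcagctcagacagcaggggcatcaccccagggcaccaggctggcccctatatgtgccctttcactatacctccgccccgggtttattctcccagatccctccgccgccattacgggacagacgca
Fkbp5, chr17:28486150-28486399, minus strand: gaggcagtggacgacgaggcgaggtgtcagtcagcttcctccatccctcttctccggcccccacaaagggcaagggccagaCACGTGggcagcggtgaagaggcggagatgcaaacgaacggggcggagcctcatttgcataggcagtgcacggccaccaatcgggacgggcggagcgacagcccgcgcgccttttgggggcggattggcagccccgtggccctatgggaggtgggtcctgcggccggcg
Per1, chr11:69098699-69098948, plus strand: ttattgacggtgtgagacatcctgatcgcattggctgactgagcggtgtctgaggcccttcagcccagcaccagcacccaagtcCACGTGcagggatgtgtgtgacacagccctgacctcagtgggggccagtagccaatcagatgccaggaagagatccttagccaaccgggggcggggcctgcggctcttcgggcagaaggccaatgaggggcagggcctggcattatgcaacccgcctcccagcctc
Ddit4, chr10:59951771-59952020, minus strand: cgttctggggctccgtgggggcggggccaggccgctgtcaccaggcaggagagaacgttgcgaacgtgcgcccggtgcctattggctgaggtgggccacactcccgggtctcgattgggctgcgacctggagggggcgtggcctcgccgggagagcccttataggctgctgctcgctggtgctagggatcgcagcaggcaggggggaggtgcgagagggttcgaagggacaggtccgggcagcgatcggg

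In the Sgk1 stretch the full element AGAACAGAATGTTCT starts at base 62, counted from the 5′ end, and an E-box at base 5 overlaps a further arm at base 9. The arm was present in 3 of the 6 windows of Sgk1 and in 1 of the 3 of Tsc22d3, where it starts at base 66. It was present in 19.0% of all windows, so its presence is common. The E-box was found at base 82 of the Fkbp5 stretch and base 85 of the Per1 stretch, against 7.15% of all windows. The Errfi1 window chr4:150854820-150855119 held the cyclic AMP response element at base 200 (1.79% of all windows) and the Klf9 window chr19:23140976-23141275 the FOXO element at base 151 (3.65%), while the shorter form TGACG was in 20.8% of all windows. None of these letters was in the windows of Ddit4 and Pik3ip1. A match is a string of letters in a window near a start site, no binding was measured, and receptor sites in introns or far from the gene were not searched.

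The wt library held 16700 barcodes and 50540198 UMIs, and the db/db library 19912 barcodes and 70039773 UMIs. After filtering, 5727 wt and 6109 db/db cells were kept, with medians of 2562 and 2523 UMIs and of 859 and 888 genes, and 11 of the kept barcodes occurred in both libraries. Clusters were named from marker genes, so that each class name below stands for cells that are B cell-like, T cell-like and so on. The classes (wt and db/db cells) were B cells (2442 and 2314), T cells (679 and 479), monocytes (122 and 368), neutrophils (167 and 361), NK cells (104 and 55), erythroid cells (1904 and 1568) and platelets (238 and 788). Although the labels give the cell type as peripheral immune cells, the erythroid and platelet classes thus made up a large part. The erythroid class was mixed, since 1538 of its 1904 wt and 1223 of its 1568 db/db cells carried markers of another lineage. A cluster of 71 wt and 148 db/db cells led by Vim, Crip1 and S100a6 stayed unnamed, and 28 db/db cells and 0 wt cells carried kidney proximal tubule genes. In each leukocyte class Gm42418, a transcript that overlaps ribosomal RNA, took more of the wt cells' UMIs (medians from 1.79% to 3.10%) than of the db/db cells' (0.410% to 0.650%). What this says about the quality of the cells was not tested.

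**Figure D1:**
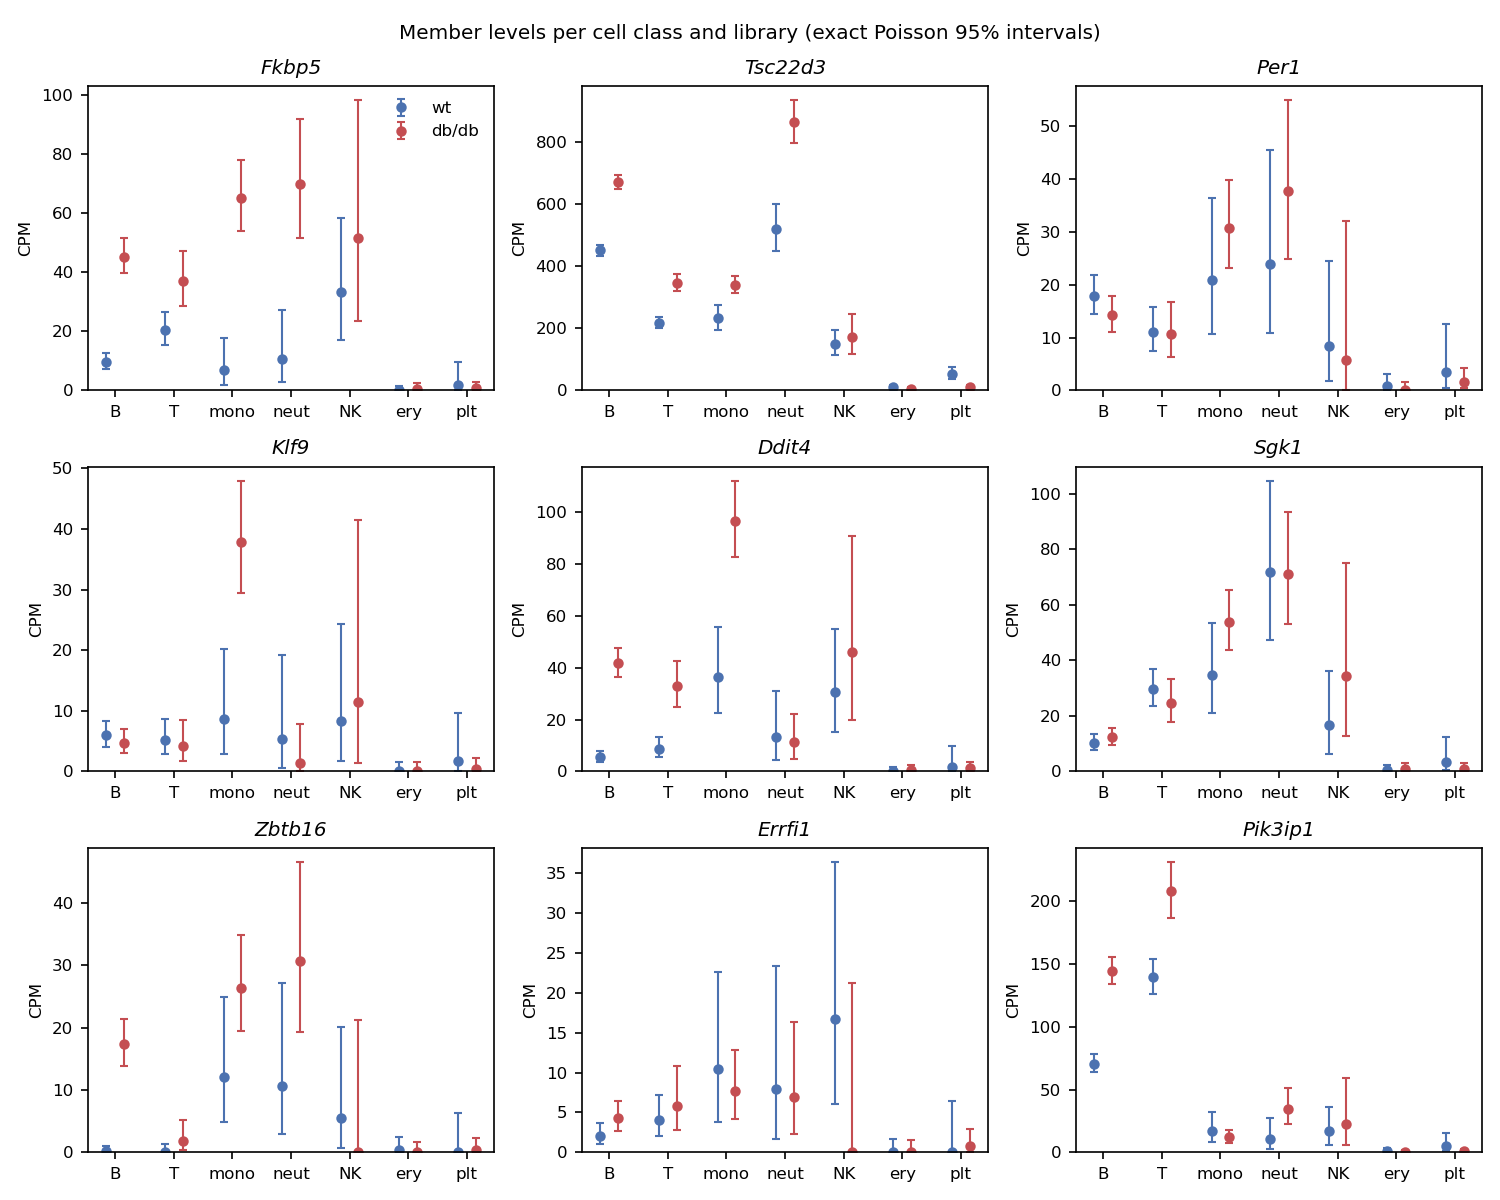
Levels of the 9 members in UMIs per 1000000 UMIs of the sum (CPM) over the cells of a class, on linear axes from 0, for wt (blue) and db/db (red); points are single libraries and bars exact Poisson 95% intervals. B, T, mono, neut and NK are leukocyte classes, ery are erythroid cells without markers of another lineage and plt are platelets; Fkbp5 lay between 6.93 and 33.4 CPM in the leukocytes of wt and between 37.0 and 69.8 CPM in those of db/db, and at or under 1.73 CPM in both other classes.

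Fkbp5 and Tsc22d3 were detected mainly in leukocytes among the blood cell classes. Platelets and erythroid cells without markers of another lineage were used to gauge the background that free RNA can set. They can understate it, because haemoglobin took 69.7% of the wt and 79.8% of the db/db platelet UMIs. In the whole erythroid class it took 73.0% and 71.0%, against at most 1.89% in B cells. Levels and thinned shares in these classes are lowered by that. The erythroid cells were also picked for lacking markers of other lineages. Fkbp5 had 1 and 2 UMIs in the platelets of wt and db/db, 0 and 1 in those erythroid cells, and 4 to 233 in each leukocyte class. When each cell was thinned to 1000 UMIs, Fkbp5 was seen in 0 of 129 wt platelets (upper bound 2.82%) and 0 of 499 db/db platelets (upper bound 0.737%), and in 1.07% and 4.89% of B cells. Tsc22d3 was seen in 3.88% and 1.00% of the thinned platelets and 1.14% and 0.885% of the erythroid cells, and in 34.4% and 47.6% of the thinned B cells. Before thinning, the B cell shares were 2.01% and 9.33% for Fkbp5 and 55.0% and 71.0% for Tsc22d3, at median depths of 2160.5 and 2148.5 UMIs per B cell and 1198.5 and 2800.5 per platelet. Errfi1 was different, with 3 UMIs (50.4 CPM, 10.4 to 147) in the 28 db/db cells that carried proximal tubule genes and at most 16.7 CPM in any leukocyte class.

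The order of the classes differed from member to member. For Fkbp5 in wt it ran from NK cells (33.4 CPM) and T cells (20.6 CPM) through neutrophils (10.6 CPM) and B cells (9.66 CPM) to monocytes (6.93 CPM). No neighbours in that order had a ratio whose interval lay above 1. Classes further apart could differ, as T cells (15.5 to 26.7 CPM) and B cells (7.21 to 12.7 CPM) had intervals that did not overlap. In db/db it ran from neutrophils (69.8 CPM) and monocytes (65.2 CPM) through NK cells (51.7 CPM) and B cells (45.3 CPM) to T cells (37.0 CPM), and the only neighbours apart were T cells and platelets. Here too classes further apart could differ, as with monocytes (54.0 to 78.0 CPM) and B cells (39.7 to 51.5 CPM). For Tsc22d3 more neighbours stood apart, in both libraries. In wt neutrophils (521 CPM) and B cells (451 CPM) did not differ beyond their intervals and stood above monocytes (234 CPM) and T cells (217 CPM), which stood above NK cells (150 CPM). In db/db the neutrophils (864 CPM) stood above B cells (671 CPM), with T cells (347 CPM) and monocytes (341 CPM) next, not apart from each other, and NK cells (172 CPM) below. Pik3ip1 was highest in T cells (140 and 208 CPM in wt and db/db) and B cells (70.8 and 145 CPM). It was at most 34.9 CPM in any myeloid class, and NK cells, at 16.7 and 23.0 CPM, lay in that range too. Sgk1 was highest in neutrophils of both libraries (71.8 and 71.2 CPM), apart from the next class in wt only, and lowest among leukocytes in B cells (10.4 and 12.3 CPM). Ddit4 was highest in monocytes of both libraries (36.4 and 96.4 CPM), and in wt these did not stand apart from the next class.

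B cells were the largest leukocyte class in both libraries. A gene counts as measured with at least 20 UMIs over both libraries, and as higher or lower past 1.5-fold on the ratio of CPM plus 10. Of the 9 members, all measured in B cells, 4 were higher in db/db past 1.5-fold and 0 lower, while 1.13% of the 10162 measured genes were higher and 1.36% lower. The median log2 ratio was 0.56 over the members and -0.03 over all measured genes. Since the members were chosen with these values known, the counts describe the set.

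Fkbp5 was at 9.66 CPM (7.21 to 12.7) in wt B cells and 45.3 CPM (39.7 to 51.5) in db/db B cells, a ratio of 4.69 (3.46 to 6.47). Ddit4, the mTORC1 inhibitor, was at 5.39 CPM (3.61 to 7.73) and 41.6 CPM (36.2 to 47.6), a ratio of 7.73 (5.23 to 11.8). By log2 ratio Ddit4 (1.75) stood at place 8 and Fkbp5 (1.49) at place 15 among the 10162 measured genes. Zbtb16 had 1 UMI in 2442 wt B cells and 89 UMIs, in 79 cells, among 2314 db/db B cells. Its ratio was 93.2, with an interval from 16.3 to 3.72e+03 that shows how little 1 UMI fixes the lower level. Pik3ip1, the PI3K inhibitor, was at 70.8 CPM (63.8 to 78.2) and 145 CPM (134 to 155), a ratio of 2.04 (1.80 to 2.32). Tsc22d3 gave the most UMIs, 2429 in wt and 3451 in db/db B cells. Its ratio of 1.49 (1.41 to 1.57) excluded 1 but stayed just under the 1.5-fold mark, with a log2 ratio of 0.56.

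The other 4 members did not pass the fold in B cells. Per1 was at 17.8 CPM in wt against 14.2 CPM in db/db (ratio 0.797, 0.579 to 1.09). Klf9 was at 5.94 and 4.67 CPM (0.786, 0.443 to 1.38), Sgk1 at 10.4 and 12.3 CPM (1.18, 0.809 to 1.72) and Errfi1 at 2.04 and 4.28 CPM (2.10, 0.974 to 4.79). All 4 intervals included 1, and Errfi1, whose ratio was as large as that of Pik3ip1 but on 11 and 22 UMIs, passed the fold with a pseudocount of 1 CPM (log2 ratio 0.80), which made the count 5. Sgk1, whose window holds the full response element, and Per1, the clock member, thus did not differ between the libraries beyond counting error, though their intervals allow ratios of up to 1.72 and 1.09.

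**Figure D2:**
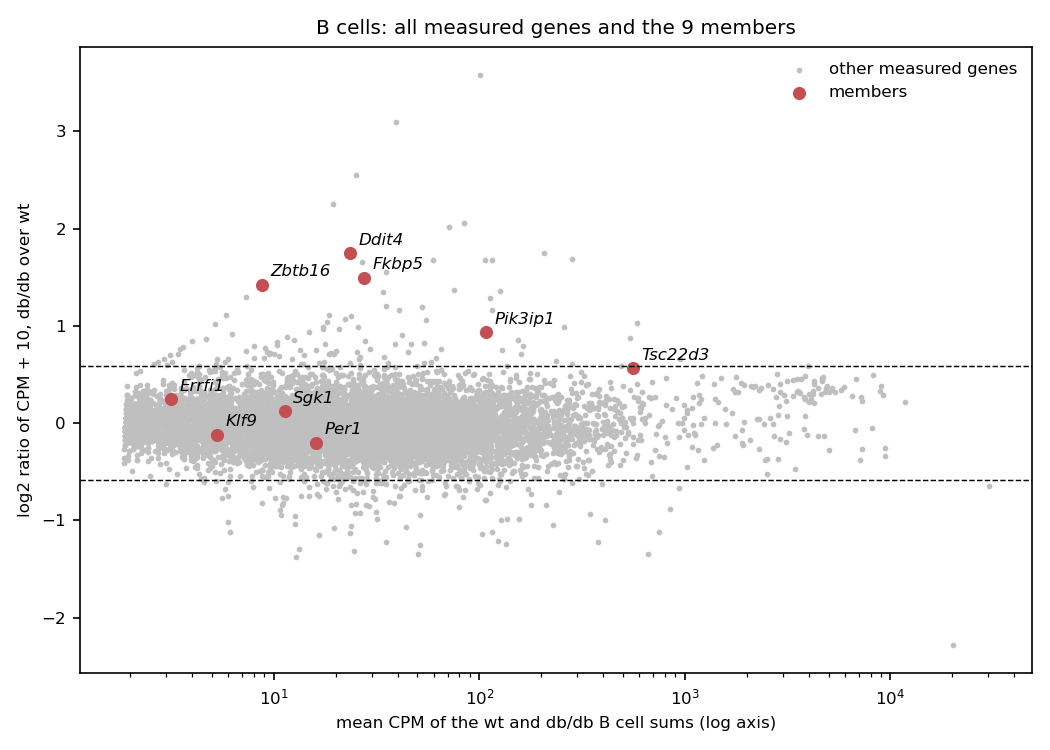
All 10162 genes measured in B cells, by their mean CPM over both libraries (log axis) and the log2 ratio of CPM plus 10, db/db over wt; red points are the members and dashed lines mark 1.5-fold. Ddit4 (1.75), Fkbp5 (1.49), Zbtb16 (1.42) and Pik3ip1 (0.94) lie above the upper line, Tsc22d3 (0.56) just below it, and Per1, Klf9, Sgk1 and Errfi1 among the bulk of genes.

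The B cell class held 4 clusters in very different proportions. The Fkbp5 ratio was above 1 in each, though in cluster 7 its interval included 1. Not every member is given for each cluster. Cluster 0, the largest (1374 wt and 1600 db/db cells), gave ratios of 5.29 (3.54 to 8.16) for Fkbp5, 7.93 (4.85 to 13.8) for Ddit4 and 2.14 (1.83 to 2.52) for Pik3ip1. Cluster 8, led by Iglc1 and Vpreb3, a gene of immature B cells, held 416 wt and 126 db/db cells and gave 5.84 (2.20 to 16.5), 7.30 (2.91 to 19.9) and 2.81 (1.86 to 4.21). Cluster 6, shallow and led by Gm42418, held 573 wt and 54 db/db cells and gave 4.41 (1.22 to 13.4) for Fkbp5 and 1.86 (1.41 to 2.44) for Tsc22d3. Cluster 7 carried the platelet-rich genes Ctla2a, Nrgn and Gng11 besides B cell genes and held 79 wt and 534 db/db cells. There the Fkbp5 ratio was 2.93 (0.954 to 14.6), on 3 wt UMIs, and the Ddit4 ratio 7.58 (1.30 to 305), on 1 wt UMI. The sum of 12 platelet markers in B cells was 239 CPM in wt against 672 CPM in db/db, with none of the 12 at 0. In B cells without markers of another lineage (1726 and 1356 cells) Fkbp5 still had a ratio of 5.47 (3.66 to 8.42), Ddit4 8.57 (5.20 to 14.9) and Pik3ip1 1.91 (1.63 to 2.24). Zbtb16 had 0 UMIs in those wt cells and 46 in those db/db cells, a ratio of 18.9 when 0 is read as 3 UMIs in the library, which is not a lower bound. With haemoglobin, mitochondrial and Gm42418 UMIs left out of the totals, the log2 ratios were 1.5 for Fkbp5 and 1.77 for Ddit4.

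T cells showed a narrower set of differences. Of the 8 measured members 3 were higher in db/db past 1.5-fold and 0 lower, beside 1.67% of 8836 measured genes higher and 1.19% lower, and the member median was 0.36 against -0.01. Ddit4 was at 8.81 CPM (5.65 to 13.1) in wt against 32.9 CPM (24.9 to 42.7) in db/db, for a ratio of 3.73 (2.28 to 6.30). Tsc22d3 was at 217 CPM (200 to 235) and 347 CPM (319 to 376), a ratio of 1.60 (1.42 to 1.79). Fkbp5 was at 20.6 CPM (15.5 to 26.7) and 37.0 CPM (28.4 to 47.4), a ratio of 1.80 (1.24 to 2.63). In T cells without markers of another lineage (309 and 236 cells), however, Fkbp5 was at 26.2 and 22.3 CPM, a ratio of 0.853 (0.422 to 1.66), so its direction in T cells turned when those cells were left out. The ratios of Tsc22d3 (1.70, 1.41 to 2.05) and Ddit4 (4.43, 2.01 to 10.8) in the same cells stayed above 1. The sum of 14 B cell markers in the whole T cell class was 899 CPM in wt against 966 CPM in db/db, and its part in the Fkbp5 value was not tested. The Tsc22d3 difference in T cells fell under 1.5-fold in 4 of the alternative settings.

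Pik3ip1 in T cells was at 140 CPM (126 to 154) and 208 CPM (187 to 231), a ratio of 1.49 (1.29 to 1.73). CD8 T cells (249 and 214) and CD4 T cells (181 and 83) gave ratios of 4.26 (1.77 to 11.7) and 5.16 (1.79 to 16.7) for Ddit4, and of 1.43 (1.22 to 1.69) and 1.42 (1.08 to 1.87) for Tsc22d3. The Fkbp5 ratio was 2.20 (1.23 to 4.04) in CD8 and 1.59 (0.570 to 4.13) in CD4 T cells; no difference between the subsets was tested. Sgk1 (29.7 and 24.7 CPM), Per1 (11.0 and 10.6 CPM), Klf9 (5.14 and 4.11 CPM) and Errfi1 (4.04 and 5.88 CPM) had intervals that included 1. Zbtb16, which marks innate-like T cells, had 0 UMIs in 679 wt and 3 UMIs in 479 db/db T cells, too few to measure.

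**Figure D3:**
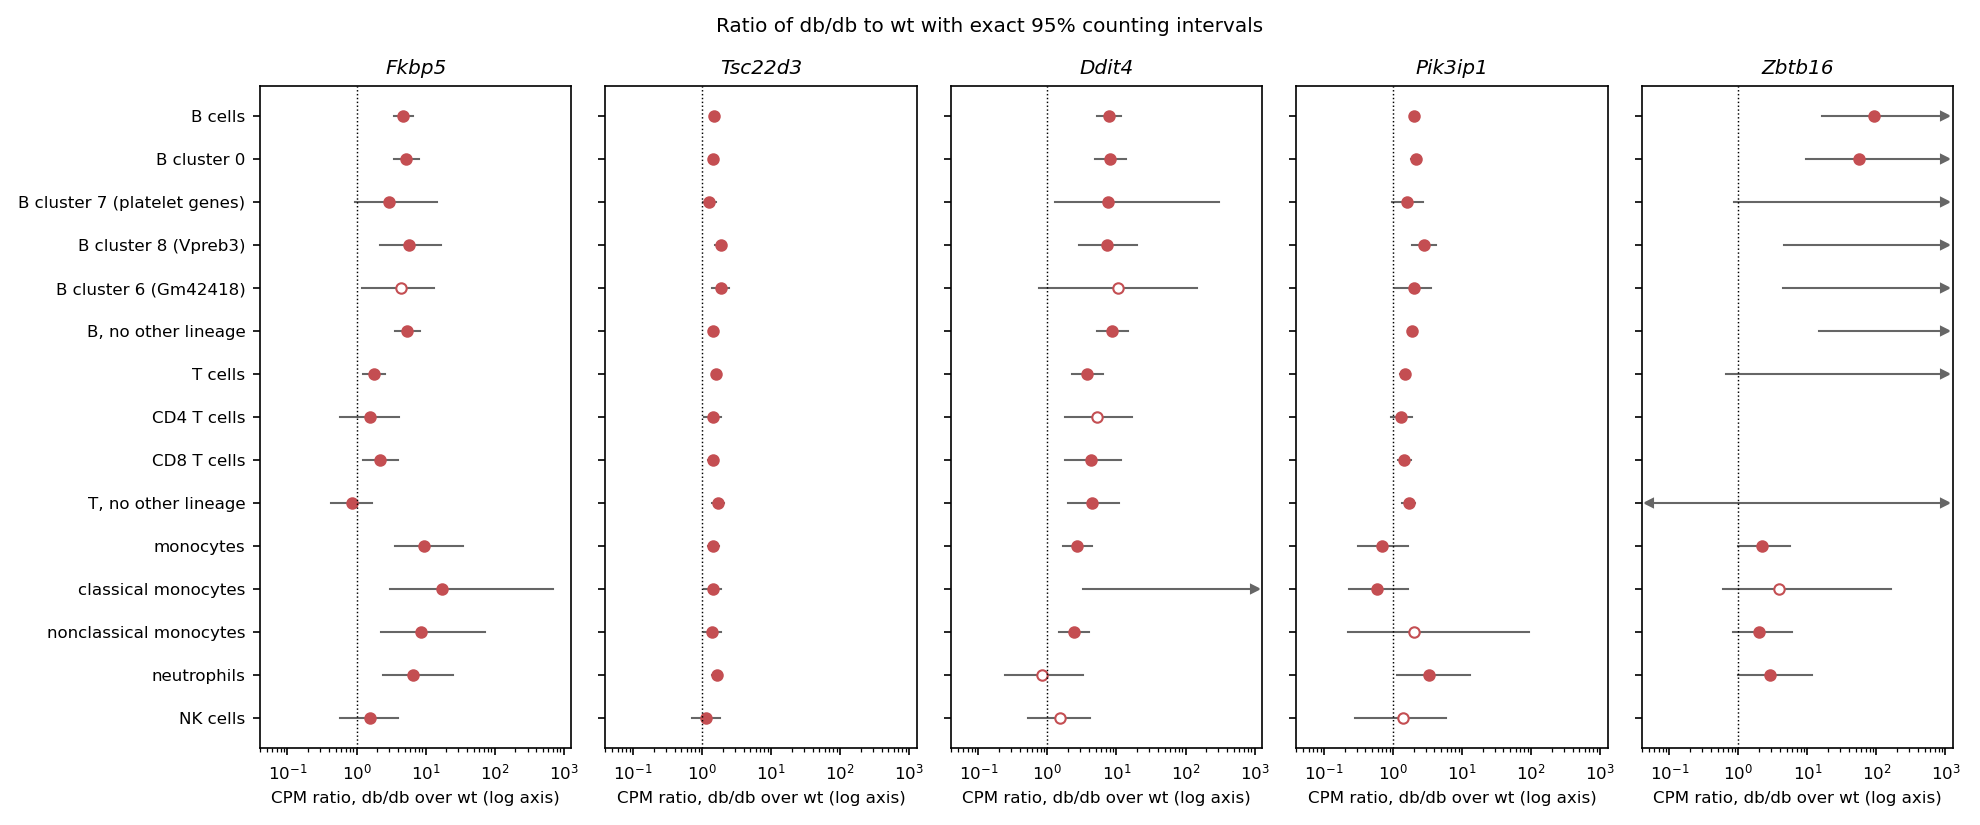
Ratio of db/db to wt CPM (log axis) for 5 members in classes, B cell clusters and subsets; lines are exact conditional binomial 95% intervals, filled points have at least 20 UMIs over both libraries, open points fewer, arrows run past the axis, and a line with no point had 0 wt UMIs. Fkbp5 and Ddit4 lie right of 1 in B cells and monocytes, Fkbp5 lies left of 1 in T cells without markers of another lineage (0.853), and Pik3ip1 lies left of 1 in monocytes (0.695).

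Monocytes had the largest Fkbp5 ratio of any leukocyte class, although the wt level rested on 4 UMIs. Of the 9 members, all measured, 4 were higher in db/db past 1.5-fold and 0 lower, beside 4.75% of 7766 genes higher and 6.1% lower, with a member median of 0.52 against -0.04. With trimmed-mean (TMM) scaling of the sums 6.45% of genes were higher and 4.28% lower. Fkbp5 was at 6.93 CPM (1.89 to 17.7) in wt against 65.2 CPM (54.0 to 78.0) in db/db, for a ratio of 9.40 (3.58 to 35.1), at place 7 by log2 ratio. Klf9, the transcription factor, was at 8.66 CPM (2.81 to 20.2) and 37.8 CPM (29.4 to 47.8), a ratio of 4.36 (1.78 to 13.9), whereas in B and T cells its interval included 1. Ddit4 was at 36.4 CPM (22.5 to 55.6) and 96.4 CPM (82.7 to 112), a ratio of 2.65 (1.68 to 4.39). Zbtb16 passed the fold on 7 and 48 UMIs, at 12.1 and 26.3 CPM, but its ratio of 2.17 (0.975 to 5.68) had an interval that included 1.

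Tsc22d3 in monocytes was at 234 CPM (196 to 277) and 341 CPM (314 to 369), a ratio of 1.46 (1.21 to 1.77). Sgk1 was at 34.7 and 53.7 CPM (1.55, 0.951 to 2.65) and Per1 at 20.8 and 30.7 CPM (1.48, 0.782 to 3.02). The last 2 members had ratios under 1, Errfi1 at 10.4 and 7.67 CPM (0.738, 0.266 to 2.34) and Pik3ip1 at 17.3 and 12.1 CPM (0.695, 0.316 to 1.64). The subsets did not stand in the same proportion, with 39 classical and 76 nonclassical cells in wt and 165 and 191 in db/db. Fkbp5 had 1 and 73 UMIs in classical and 2 and 43 UMIs in nonclassical monocytes of wt and db/db, ratios of 17.5 (3.05 to 701) and 8.65 (2.25 to 73.7). Ddit4 had no UMI (0) in wt classical monocytes and 52 in those of db/db, a ratio of 4.16 when 0 is read as 3 UMIs, which is not a lower bound. In nonclassical monocytes the Ddit4 ratio was 2.39 (1.48 to 4.06). The Ddit4 level in nonclassical monocytes was 68.1 CPM in wt against 163 CPM in db/db. In monocytes without markers of another lineage (49 and 190 cells) the ratios were 6.52 (1.73 to 55.1) for Fkbp5, 8.55 (1.44 to 346) for Klf9 and 2.43 (1.27 to 5.21) for Ddit4.

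In neutrophils Fkbp5 and Tsc22d3 were again higher in db/db, while Ddit4 and Klf9 had too few UMIs to be measured. Of the 6 measured members 4 were higher in db/db past 1.5-fold and 0 lower, beside 4.09% of 4158 genes higher and 17.4% lower, with a member median of 0.85 against -0.20. That all-gene split depended on the scaling. It was 10.8% higher and 7.94% lower with TMM scaling and 12.0% and 6.04% with median-of-ratios scaling, which moved the all-gene median by 0.27 and 0.30, and haemoglobin took 16.7% of the wt and 26.8% of the db/db neutrophil UMIs. Fkbp5 was at 10.6 CPM (2.90 to 27.2) and 69.8 CPM (51.8 to 92.0), a ratio of 6.56 (2.41 to 25.0). Tsc22d3 was at 521 CPM (451 to 599) and 864 CPM (797 to 935), a ratio of 1.66 (1.41 to 1.96), and its log2 ratio of 0.72 became 1.03 with TMM scaling. Pik3ip1 was at 10.6 CPM (2.90 to 27.2) and 34.9 CPM (22.6 to 51.5), a ratio of 3.28 (1.13 to 13). Zbtb16 was at 10.6 and 30.7 CPM, a ratio of 2.89 (0.980 to 11.5). In neutrophils without markers of another lineage (59 and 169 cells) Fkbp5 had 0 wt and 21 db/db UMIs, and the Zbtb16 ratio was 1.14 (0.284 to 6.53) on 3 and 9 UMIs.

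Sgk1 in neutrophils was at 71.8 CPM (47.3 to 104) and 71.2 CPM (53.0 to 93.6), a ratio of 0.991 (0.610 to 1.64). Per1 was at 23.9 and 37.7 CPM (1.57, 0.719 to 3.81). Ddit4 had 5 and 8 UMIs, Klf9 2 and 1 and Errfi1 3 and 5, all too few to be measured. The Ddit4 level of 11.2 CPM in db/db neutrophils stood below that of db/db T cells (32.9 CPM), a T cell to neutrophil ratio of 2.95 (1.40 to 7.16).

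NK cells were too few to show a difference in the members. Only Fkbp5 (12 UMIs in 104 wt and 9 UMIs in 55 db/db cells) and Tsc22d3 (54 and 30 UMIs) were measured. Their ratios were 1.55 (0.577 to 4.01) and 1.15 (0.710 to 1.83), and 0 of 2 passed 1.5-fold, beside 13.3% of 3752 genes higher and 10.4% lower (8.64% and 15.1% with TMM scaling, which moved the all-gene median by -0.13). The erythroid class looked like B cells for the members, with Fkbp5 at 1.69 and 11.3 CPM and 4 of 7 measured members higher past 1.5-fold beside 2.16% of 8996 genes higher and 0.545% lower. These UMIs sat in cluster 1, which also had the B cell genes Cd79a, Iglc2 and Igkc among its 10 leading genes and held 83 of the 88 db/db Fkbp5 UMIs of the class. In erythroid cells without markers of another lineage (366 and 345), Fkbp5 had 0 and 1 UMIs and Tsc22d3 was at 12.3 and 6.05 CPM (0.492, 0.239 to 0.966). Platelets ran the other way for Tsc22d3, which was at 53.6 CPM (36.4 to 76.1) in wt against 12.4 CPM (8.34 to 17.6) in db/db, for a ratio of 0.230 (0.135 to 0.394). There 39.6% of the 2423 measured genes were lower and 2.15% higher, and the sum of the 14 B cell markers was 709 CPM in wt against 147 CPM in db/db, with none of them at 0; its part in the Tsc22d3 value was not tested. The unnamed cluster gave ratios of 6.18 (1.94 to 31.5) for Fkbp5 and 2.00 (1.17 to 3.58) for Pik3ip1.

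Whether the same db/db B cells carried several members could not be settled at this depth. Among cells thinned to 1000 UMIs, Ddit4 was seen in 5 of the 109 cells with an Fkbp5 UMI (4.59%, Clopper-Pearson 1.51 to 10.4) and in 3.96% (3.17 to 4.88) of the 2120 without. Pik3ip1 was seen in 11.0% (5.82 to 18.4) and 13% (11.6 to 14.5), and Tsc22d3 in 51.4% (41.6 to 61.1) and 47.4% (45.3 to 49.6). Zbtb16 was seen in 2.75% (0.571 to 7.83) and 1.27% (0.841 to 1.85). The intervals overlapped for each of these 4 partners and are wide for the rare ones, so that neither shared nor separate detection was shown. With Ddit4 in place of Fkbp5, Pik3ip1 was seen in 14.6% (8.01 to 23.7) of 89 cells with a Ddit4 UMI and 12.8% (11.4 to 14.3) of the rest.

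No gene of the receptor machinery passed 1.5-fold in B or T cells. Of 13 machinery genes 12 were measured in B cells and 0 passed 1.5-fold in either direction, with a median of -0.11, and in T cells 0 of 11 did. Nr3c1, the receptor, was at 159 CPM in wt against 141 CPM in db/db B cells (ratio 0.888, 0.804 to 0.982), 88.1 and 102 CPM in T cells (1.15, 0.943 to 1.41), 140 and 119 CPM in monocytes (0.851, 0.656 to 1.11) and 178 and 131 CPM in neutrophils (0.736, 0.533 to 1.02). Hsd11b1, the enzyme that regenerates active hormone, was at 8.54 and 8.95 CPM in B cells, and Hsd11b2, which inactivates it, had 0 UMIs in every leukocyte class. In NK cells 0 of 9 were higher and 2 lower, Stip1 (97.3 and 40.2 CPM) and Nr3c1 itself (164 and 103 CPM, ratio 0.631, 0.350 to 1.08), with a median of -0.26. Of all genes measured in NK cells 13.3% were higher and 10.4% lower. In monocytes 0 of 11 measured machinery genes were higher and 1 was lower, the co-chaperone Stip1 (53.7 and 25.2 CPM), beside 4.75% and 6.1% of all genes. In neutrophils 0 of 8 were higher and 3 lower, the chaperone Hsp90ab1 (186 and 102 CPM), its partner Ptges3 (71.8 and 37.7 CPM) and the coactivator Ncoa2 (63.8 and 39.1 CPM, ratio 0.612, 0.342 to 1.10), in the class where 17.4% of all genes were lower. Among the remaining B cell machinery genes the log2 ratios ran from -0.38 (Ncoa2) to 0.32 (Ptges3), with Hsp90aa1 at -0.17, Hsp90ab1 at -0.12, Ncor1 at -0.09, Ncoa3 at -0.14, Ncoa1 at 0.01, Fkbp4 at 0.08, Stip1 at -0.31 and the mineralocorticoid receptor Nr3c2 at -0.08.

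Of the other genes known to rise with glucocorticoids, some were higher and some lower in db/db, and most did not pass the fold. In B cells 13 of 17 measured had a log2 ratio above 0, and 3 were higher past 1.5-fold (17.6%, beside 1.13% of all genes) and 1 lower, with a median of 0.19. The higher ones were Txnip (382 and 791 CPM, ratio 2.07, 1.96 to 2.18), which binds thioredoxin and also answers to glucose, the stress gene Sesn1 (68.3 and 138 CPM, 2.02, 1.78 to 2.30), and Thbs1. Thbs1 is also among the 10 leading genes of both platelet clusters. The sum of 12 platelet markers in B cells was 239 CPM in wt against 672 CPM in db/db, and its part in the Thbs1 value was not tested. Bcl6, the germinal centre repressor, was lower (45.7 and 18.1 CPM, 0.396, 0.309 to 0.505). In T cells 3 of 17 were higher (beside 1.67% of all genes), Txnip (416 and 828 CPM), the interleukin-7 receptor Il7r (593 and 1098 CPM) and Thbs1, and 1 was lower, again Bcl6, on 20 and 2 UMIs. In monocytes 5 of 21 were higher and 4 lower (beside 4.75% and 6.1%), with Lcn2, a siderophore-binding protein, at 5.20 and 57.0 CPM and the death gene Bcl2l11 at 10.4 and 34.5 CPM at the top. The 4 lower ones were Sesn1 (31.2 and 15.3 CPM), which was higher in db/db B cells, Tgfbr3 (43.3 and 23.0 CPM), Bcl6 (128 and 76.1 CPM) and Thbs1 (113 and 70.1 CPM). Lcn2 was far higher in neutrophils (566 and 1115 CPM). The sum of 10 neutrophil markers in monocytes was 168 CPM in wt against 519 CPM in db/db, and its part in the Lcn2 value was not tested. In neutrophils 4 of 19 were higher and 2 lower (beside 4.09% and 17.4%), with Lcn2 (566 and 1115 CPM) and the decoy receptor Il1r2 (170 and 293 CPM) the highest. In NK cells 4 of 10 were higher and 0 lower (beside 13.3% and 10.4%), with Txnip (292 and 632 CPM, ratio 2.17, 1.64 to 2.86) among them.

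**Figure D4:**
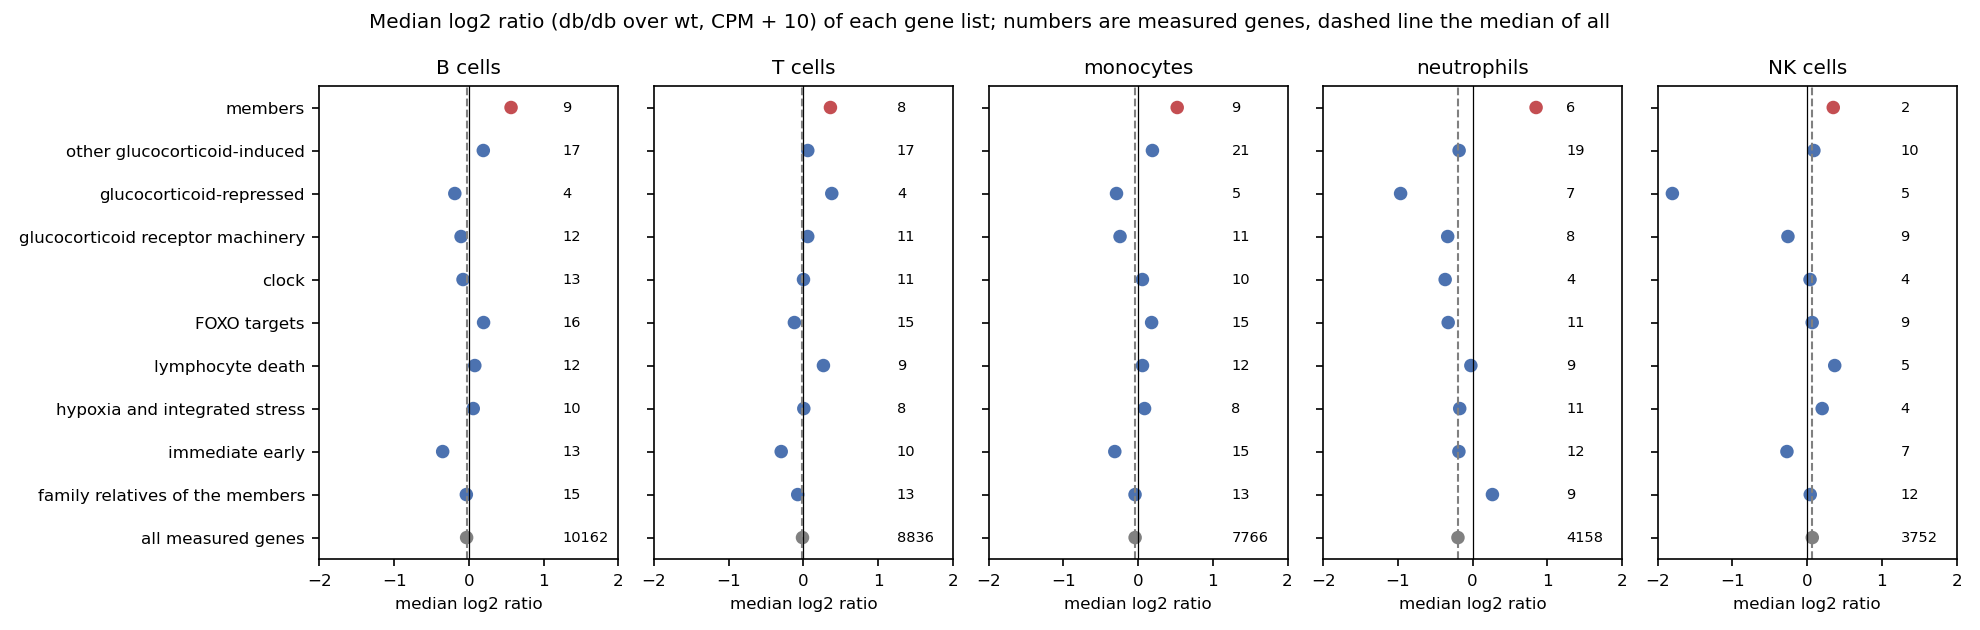
Median log2 ratio (db/db over wt, CPM plus 10) of the members (red), of 9 other gene lists (blue) and of all measured genes (grey, dashed line) in 5 classes; the number beside each point is how many genes were measured. The members lie at 0.56, 0.36, 0.52, 0.85 and 0.35 in B cells, T cells, monocytes, neutrophils and NK cells, and the other glucocorticoid-induced genes at 0.19, 0.06, 0.19, -0.18 and 0.09.

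Genes that glucocorticoids are known to lower were mostly near or below their wt level in myeloid and NK cells. In neutrophils 4 of 7 measured were lower past 1.5-fold and 1 higher, with a median of -0.96 against -0.20 for all genes. Of all neutrophil genes 17.4% were lower and 4.09% higher. With TMM scaling these shares were 7.94% and 10.8%, and the all-gene median moved by 0.27. Nfkb1 (85.1 and 32.1 CPM, ratio 0.377, 0.211 to 0.665) and the prostaglandin synthase Ptgs2 (202 and 97.7 CPM, 0.483, 0.344 to 0.678) were the lowest with at least 50 UMIs, and the chemokine Cxcl2 was higher (53.2 and 149 CPM, 2.81, 1.73 to 4.78). In NK cells 4 of 5 were lower, beside 10.4% of all genes, among them the chemokine Ccl4 (706 and 121 CPM, 0.171, 0.104 to 0.267) and the adhesion molecule Icam1 (136 and 28.7 CPM, 0.211, 0.0656 to 0.527). In monocytes 1 of 5 was lower, Il1b (149 and 74.5 CPM, 0.50, 0.379 to 0.663), and 1 higher, Cxcl10, on 0 wt and 25 db/db UMIs. Of all monocyte genes 6.1% were lower and 4.75% higher. In B cells 0 of 4 passed the fold in either direction. In T cells 2 of 4 were higher, Icam1 and Ccl4, and 0 lower, beside 1.67% and 1.19% of all genes.

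Few of the clock genes passed the fold. In B cells 0 of 13 measured clock genes passed 1.5-fold in either direction (median -0.08), with Cry1 at 0.31 and Csnk1e at -0.34 the extremes, and in T cells (0 of 11) and monocytes (0 of 10) none did either. In NK cells 0 of 4 passed, and in neutrophils 1 of 4 was lower, the kinase Csnk1d (77.1 and 43.3 CPM, ratio 0.561, 0.327 to 0.965), with a median of -0.37 against -0.20 for all genes. There 17.4% of all genes were lower and 4.09% higher. The immediate early genes, which cells raise within minutes of handling or stimulation, leaned to wt. In B cells 0 of 13 were higher and 2 lower, Egr1 (23.0 and 3.50 CPM) and Fosb (145 and 60.1 CPM), beside 1.13% and 1.36% of all genes. In T cells 0 of 10 were higher and 1 lower, beside 1.67% and 1.19% of all genes. In monocytes 1 of 15 was higher and 5 lower (beside 4.75% and 6.1% of all genes), with Hspa1b (88.4 and 8.22 CPM) and Egr1 (98.8 and 12.6 CPM) the lowest. In neutrophils 0 of 12 were higher and 3 lower, beside 4.09% and 17.4% of all genes. The part of handling in the member values was not tested.

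The FOXO and stress lists, tied to other known inputs of Ddit4 and Pik3ip1, gave at most 1 higher call each in B and T cells, and the FOXO list gave 4 in monocytes. Of the FOXO targets 1 of 16 was higher past 1.5-fold in B cells and 0 lower, namely Sesn1, and in T cells 1 of 15, namely Il7r. Of all genes 1.13% were higher and 1.36% lower in B cells, and 1.67% and 1.19% in T cells. These shares also stand beside the B and T cell counts of the lists that follow. In monocytes 4 of 15 FOXO targets were higher and 1 lower, beside 4.75% and 6.1% of all genes, with a median of 0.18. In neutrophils 0 of 11 were higher and 2 lower, beside 4.09% and 17.4% of all genes. In NK cells 2 of 9 were higher and 1 lower, beside 13.3% and 10.4%. Of the hypoxia and integrated stress genes 1 of 10 was higher in B cells, Ankrd37 (19.3 and 39.7 CPM), and 1 lower, Atf4 (171 and 110 CPM), and in T cells 0 of 8 passed in either direction. In monocytes 1 of 8 and in neutrophils 1 of 11 of these stress genes were higher, and 0 lower. Of all genes 4.75% were higher and 6.1% lower in monocytes, and 4.09% and 17.4% in neutrophils. Of the lymphocyte death genes 0 of 12 passed in B cells, and in T cells 2 of 9 were higher, the pro-death gene Bbc3 (17.3 and 59.3 CPM, ratio 3.44, 2.41 to 4.97) and its antagonist Bcl2 (336 and 629 CPM, 1.87, 1.71 to 2.05). Among family relatives of the members, 1 of 15 was higher in B cells and 1 of 13 in T cells, in both Tsc22d1, the sister gene of Tsc22d3 (61.1 and 164 CPM in B cells, 27.2 and 121 CPM in T cells). Tsc22d1 is itself among the 10 leading genes of both platelet clusters, and platelet markers summed to 141 CPM in wt against 508 CPM in db/db T cells; their part in the Tsc22d1 values was not tested.

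Over the 14 sums of 7 classes by 2 libraries, the genes whose log2 levels were most like those of Fkbp5 were Nabp2 (Pearson r 0.845), Pgm2 (0.843), Rnaset2b (0.842), Ndufa8 (0.832) and Sertad3 (0.822), among 8179 genes. For Ddit4 they were Acot9 (0.908), Dclre1b (0.889), Siva1 (0.888), Pex7 (0.882) and Hopx (0.881), and for Tsc22d3 Gm26740 (0.952), Stk17b (0.951), Jmjd1c (0.951), Gmfg (0.946) and Btg1 (0.945). Among the members themselves, Ddit4 was closest to Klf9 (0.818) and Fkbp5 (0.755), and Tsc22d3 to Per1 (0.821). The sums share 2 libraries and differ in depth and cell type, so these values describe the level pattern over classes more than the genotype difference.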

How the data were processed

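Single-cell libraries of blood leukocytes from 2 groups were analysed, 1 library each. The deposited matrices hold raw counts of UMIs per gene and barcode, made by the authors with Cell Ranger 3.0.2 on mm10, per the submitters' processing notes; the role of each beyond that is not given in the sources used here. Barcodes with 200 to 6000 genes and under 10% mitochondrial UMIs were kept. Counts scaled to 10000 per cell were clustered (scanpy 1.11.5; 2000 variable genes without the members and gene lists, 30 components, 15 neighbours, Leiden resolution 1), and clusters were named from marker genes. No annotation of cell types was used here, so classes are rebuilt. No doublet caller was run, and cells with at least 2 markers of another lineage were left out as an alternative. For each library, the UMIs of a class were added up and scaled to CPM. Intervals are exact Poisson for a level, conditional binomial for a ratio and Clopper-Pearson for a share, with numpy 2.4.6 and scipy 1.17.1 in Python 3.11.15. The ratio intervals were tried on simulated Poisson counts, which hold no variation between cells or mice, so that check covers counting error alone. Log2 ratios use CPM plus 10, and a gene with at least 20 UMIs over both libraries counts as measured. For a level of 0, a floor of 3 counts was used. With 1 library per group no test between genotypes was run. The members and lists were chosen with earlier results of these data known. Named were all members, the whole receptor list and, of each other list, the genes with the 2 highest and 2 lowest log2 ratios per class and at least 50 UMIs. Genes named beyond that, to complete a count of 5 or fewer, were chosen after their values were seen. A gene of the FOXO list that this rule names in monocytes is not reported here. Promoters came from RefSeq (GRCm38.p6) and gene positions from GENCODE.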

Additional observations from a re-analysis of the deposited data

Results flagged for a closer look

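The log2 ratio of Tsc22d3 had opposite signs in platelets and in leukocyte classes. In platelets it was -1.51, from 31 UMIs in wt and 30 in db/db, whereas it was 0.56 in B cells, 0.65 in T cells, 0.52 in monocytes and 0.72 in neutrophils. Of all genes measured in platelets 39.6% were lower and 2.15% higher, with a median of -0.46. The sum of 14 B cell markers there was 709 CPM in wt against 147 CPM in db/db, and its part was not tested. The difference between the classes was not tested, since each genotype has 1 library.

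The barcodes removed for at least 10% mitochondrial UMIs, 1849 in wt and 374 in db/db, held members at higher levels in db/db. Their log2 ratios were 1.46 for Fkbp5 (18 and 46 UMIs), 2.69 for Klf9 (10 and 92 UMIs), 0.90 for Sgk1 (22 and 32 UMIs) and 3.64 for Errfi1 (6 and 158 UMIs). Proximal tubule markers were present in 1 of the wt and 99 of the db/db barcodes. Those 99 held 156 of the 158 Errfi1 UMIs, all 92 Klf9 UMIs, 27 of the 32 Sgk1 UMIs and 31 of the 46 Fkbp5 UMIs. In the remaining 1848 and 275 barcodes Fkbp5 had 18 and 15 UMIs, at 10.2 and 53.4 CPM (ratio 5.23, 2.45 to 11.0), while the ratios of Sgk1 (1.43, 0.422 to 3.86) and Errfi1 (2.09, 0.206 to 11.7) had intervals that included 1, and Klf9 had 10 and 0 UMIs.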

How the results depend on the processing

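Values were recomputed under 16 alternatives, and under 1 chosen after seeing the data, the largest cluster of each class alone. Of the 15 member values past 1.5-fold in the leukocyte classes, 11 stayed past it in every setting and 14 kept their sign. The exception in sign was Fkbp5 in T cells, at -0.16 without cells of several lineages. Zbtb16 fell to 0.14 in neutrophils in that setting, and to 0.57 in monocytes when every cell weighed the same. The member median of 0.56 in B cells became 0.45 with a minimum of 100 genes, 0.41 at Leiden resolution 2, 0.67 with classes from marker UMIs, 0.80 with a pseudocount of 1 CPM and 0.75 with a minimum of 50 UMIs. Without cells of several lineages the median became 0.72 in T cells and 1.15 in monocytes. The count of members past 1.5-fold in T cells, 3, was 1 with a minimum of 100 genes and 1 with classes from marker UMIs. In neutrophils the count of 4 was 2 without cells of several lineages and 2 with a minimum of 50 UMIs, where fewer members were measured. In NK cells the count of 0 became 3 with a minimum of 100 genes, 3 at Leiden resolution 0.5, 2 with a mitochondrial limit of 5%, 1 with a pseudocount of 1 CPM and 1 with no minimum of UMIs. Apart from the last and from the minimum of 50 UMIs, the cause of these changes was not tested. No paired analysis was possible because each group has 1 library and the labels give no replicate numbers. Depth limits the wt levels of rare members most, such as the 4 Fkbp5 UMIs in wt monocytes and the same number in wt neutrophils. Without cells of several lineages the NK cells were 7 and 5, too few to use, and why so many were left out was not tested.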
